A study of Mus musculus with 12 samples.

Results

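Mitochondrial ribosomal proteins are made from nuclear genes, imported into mitochondria and assembled with mitochondrially encoded rRNA. The small subunit reads the mRNA, and the large subunit joins the amino acids and passes the chain through an exit tunnel to the inner membrane. The finished ribosomes translate the few mRNAs of the mitochondrial genome, all of them for subunits of oxidative phosphorylation, which muscle cells use heavily once they differentiate. The genes described here are 77 of the 13076 genes kept in the series. They are the protein-coding genes whose symbol starts with Mrpl or Mrps and a number and whose level reached 1 TPM (transcript abundance, scaled to 1000000 a library) in at least 3 of 12 libraries. Of 78 such genes, Mrpl53 was listed at 0 in every library and dropped out. The 77 comprise 48 named Mrpl and 29 named Mrps. By protein position, 50 belong to the large subunit, among them Mrps30 and Mrps18a in spite of their names, and 26 to the small subunit. Mrps36 belongs to neither, being known as a subunit of 2-oxoglutarate dehydrogenase.

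Libraries were made from poly(A) RNA of C2C12 cells, a mouse myoblast line that fuses into multinucleated fibres when serum is lowered. There were 4 groups of 3 libraries: siKctd10 at D2, siControl at D2, siKctd10 at D0 and siControl at D0. siKctd10 is a single siRNA against Kctd10, an adaptor of CUL3 ubiquitin ligases, and siControl is a non-targeting siRNA. Every library came from siRNA-treated cells, harvested 48 h after the siRNA per the labels' protocols. D0 cells were undifferentiated and grew subconfluent with 10% serum. D2 cells were differentiating, in medium with 2% horse serum from 24 h after the siRNA, a time that does not match 2 days. All cells are of 1 line, and the labels do not say that replicates were separate cultures, so the p-values cover the spread among these libraries, which may be technical.

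Depth, in units of 1000000 read pairs and estimated from coverage, was 12.51 to 18.08 a library. Kctd10 had 34.3, 26.8 and 35.1 TPM in the D2 siKctd10 libraries, against 285, 276 and 289 TPM in the D2 siControl libraries. At D0 it had 24.76, 24.46 and 19.97 TPM with siKctd10, against 272, 258 and 269 TPM with siControl. Markers of skeletal myoblasts and myocytes were present, with 6 of 6 genes kept in each list, and the 5 adipocyte markers were at 0 in every library. Sums per library were 23.2 to 47.6 TPM for 6 leukocyte markers (2 kept) and 23.1 to 61.4 TPM for 5 osteoblast markers (1 kept). They were 4.13 to 35.6 TPM for 5 neural markers (1 kept) and 0.133 to 1.65 TPM for 5 endothelial markers (0 kept). Within each group 1 library held the lowest value in more members than the others did. At D2 these were siKctd10 library 3 (lowest in 48.1% of members, against 40.8% of all genes) and siControl library 2 (42.9%, against 30.7%). At D0 they were siKctd10 library 3 (50.6%, against 45.6%) and siControl library 3 (41.6%, against 29.7%).

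The mRNA levels of these genes, as TPM, which corrects for transcript length, differed widely although the proteins are built into ribosomes together. Averaged over the 12 libraries, members lay between 1.78 TPM (Mrps36, of neither subunit) and 209 TPM. The lowest subunit members had 2.40 TPM (large) and 2.79 TPM (small). Over all members the median was 24.5 TPM, against a median of 21.8 TPM over all genes kept. The median was 40.0 TPM for the large subunit and 20.1 TPM for the small subunit. The highest were Mrpl30, a large-subunit protein with a bacterial homologue (209 TPM), Mrpl10, the base of the stalk that recruits translation factors (201 TPM), and Mrpl43 (145 TPM). Next came Mrps24 (126 TPM), Mrpl33 (124 TPM) and Mrps18a (122 TPM). The lowest were Mrps36 (1.78 TPM), Mrpl23, a protein at the exit tunnel (2.40 TPM), Mrps18c (2.79 TPM) and Mrpl35 (6.17 TPM). Of these high and low members, Mrps24 and Mrps18c spread more than 3-fold inside a group, so their means are uncertain.

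The genes are scattered over 17 chromosomes, and many start close to another gene on the opposite strand. In the GENCODE annotation of mm10, 33 of 77 members (42.9%) have the start of a protein-coding gene of the other strand within 1000 bases, against 16.5% of the 12035 protein-coding genes kept. The only such pair made of 2 members was Mrps11 and Mrpl46. RefSeq promoter windows (GRCm38.p6, 250 bases before to 50 after the start) were found for 68 members, and 4 motifs of factors known to act on housekeeping promoters were searched on both strands. GCGCANGCG (NRF1) was in a window of 23.5% of these members, against 15.3% of all genes kept that have a window. CCGGAAG (ETS family) was in 36.8%, against 20.4% of all genes kept, and AAGATGGC (YY1) was in 17.6%, against 5.34%. CACGTG (E-box) was in 7.35%, against 11.7%. Over all 27025 genes with a window the shares were 7.03% (NRF1), 9.93% (ETS), 3.19% (YY1) and 8.09% (E-box). No matches of different motifs shared bases in the members' windows, and a match is only a description of the letters.

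The windows of 5 members that the results below turn on are shown 5′ to 3′, with matches in capitals. They are the 2 small-subunit genes that fell between days in both siRNA arms, a stalk gene that fell, the member that rose, and the member with the smallest p for siKctd10 at D2. Mrps6 holds none of the motifs, Mrps7 holds the YY1 motif, Mrpl12 the NRF1 motif, Mrpl57 the NRF1 and ETS motifs, and Mrpl30 the NRF1 motif at 2 places.
Mrps6 (chr16:92058086-92058385, plus strand): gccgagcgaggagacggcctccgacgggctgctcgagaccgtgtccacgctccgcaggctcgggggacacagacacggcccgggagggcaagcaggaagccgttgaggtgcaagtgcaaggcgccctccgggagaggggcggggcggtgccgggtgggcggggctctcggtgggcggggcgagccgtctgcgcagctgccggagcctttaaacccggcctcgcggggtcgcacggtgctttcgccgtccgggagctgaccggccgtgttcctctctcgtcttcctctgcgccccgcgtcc
Mrps7 (chr11:115603890-115604189, plus strand): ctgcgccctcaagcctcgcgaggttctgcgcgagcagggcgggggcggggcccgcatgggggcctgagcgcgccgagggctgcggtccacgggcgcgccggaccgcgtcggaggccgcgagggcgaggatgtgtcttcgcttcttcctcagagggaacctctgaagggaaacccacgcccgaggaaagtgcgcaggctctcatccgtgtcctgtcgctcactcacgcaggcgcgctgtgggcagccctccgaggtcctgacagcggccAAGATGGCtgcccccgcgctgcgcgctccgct
Mrpl12 (chr11:120484387-120484686, plus strand): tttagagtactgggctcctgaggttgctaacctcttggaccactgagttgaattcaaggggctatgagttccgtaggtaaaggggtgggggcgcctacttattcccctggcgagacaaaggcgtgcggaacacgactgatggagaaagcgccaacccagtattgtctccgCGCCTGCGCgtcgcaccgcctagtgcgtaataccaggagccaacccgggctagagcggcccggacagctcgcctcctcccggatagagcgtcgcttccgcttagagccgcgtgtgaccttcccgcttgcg
Mrpl57 (chr14:57825989-57826288, plus strand): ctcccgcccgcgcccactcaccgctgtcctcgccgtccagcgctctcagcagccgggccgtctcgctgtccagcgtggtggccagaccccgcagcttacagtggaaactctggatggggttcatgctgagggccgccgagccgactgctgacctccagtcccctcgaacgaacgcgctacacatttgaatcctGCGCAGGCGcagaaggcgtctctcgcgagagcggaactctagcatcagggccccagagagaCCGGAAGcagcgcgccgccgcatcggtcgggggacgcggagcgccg
Mrpl30 (chr1:37890227-37890526, plus strand): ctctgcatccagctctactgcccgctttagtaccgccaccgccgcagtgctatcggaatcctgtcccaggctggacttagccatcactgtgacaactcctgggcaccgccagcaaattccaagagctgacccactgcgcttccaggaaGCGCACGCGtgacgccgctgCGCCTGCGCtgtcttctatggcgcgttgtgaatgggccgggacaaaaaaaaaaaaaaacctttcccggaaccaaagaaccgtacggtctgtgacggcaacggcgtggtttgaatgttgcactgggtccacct

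Between D0 and D2 in siControl cells, 13 members fell and 1 rose. The falls took in both subunits: Mrps6, Mrps7 and Mrps11 of the small subunit, and 10 large-subunit genes that include stalk, exit tunnel and central protuberance proteins. Mrps6 fell most among them, to 0.38 of its D0 mean. Mrpl57, a mitochondria-specific large-subunit protein, was the member that rose, to 1.38 times its D0 mean. In bulk RNA, fewer cells with a transcript and less of it per cell cannot be told apart.

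The test was limma on log2(TPM + 1) with all genes adjusted together (Benjamini-Hochberg, threshold 0.05), and fold changes on this scale understate the change of low genes. Of 13076 genes, 35.5% passed, 14% lower and 21.4% higher at D2. Of the members, 18.2% passed, 16.9% lower and 1.3% higher. The share of members that fell is near the background, while far fewer rose than among all genes. The median log2 fold change was -0.21 over the members (large subunit -0.24, small subunit -0.18), against 0.09 over all genes, and 56 of 77 members were negative, against 43.9% of all genes. In 33 members (42.9%) the 3 libraries of either day did not overlap, against 52.3% of all genes. By subunit, 10 of 50 large-subunit genes fell and 1 rose, and 3 of 26 small-subunit genes fell. With median-ratio scaling, 19 members fell and 0 rose, and with quantile normalization 20 fell and 0 rose. Of all 13076 genes, 2252 and 2309 fell with these scalings, against 1836 without them. Those scalings also moved the split over all genes, from 60.4% of calls higher to 52.0% and 49.0%, and its median to 0.01 and -0.03, with member medians of -0.31 and -0.33.

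**Figure D1:**
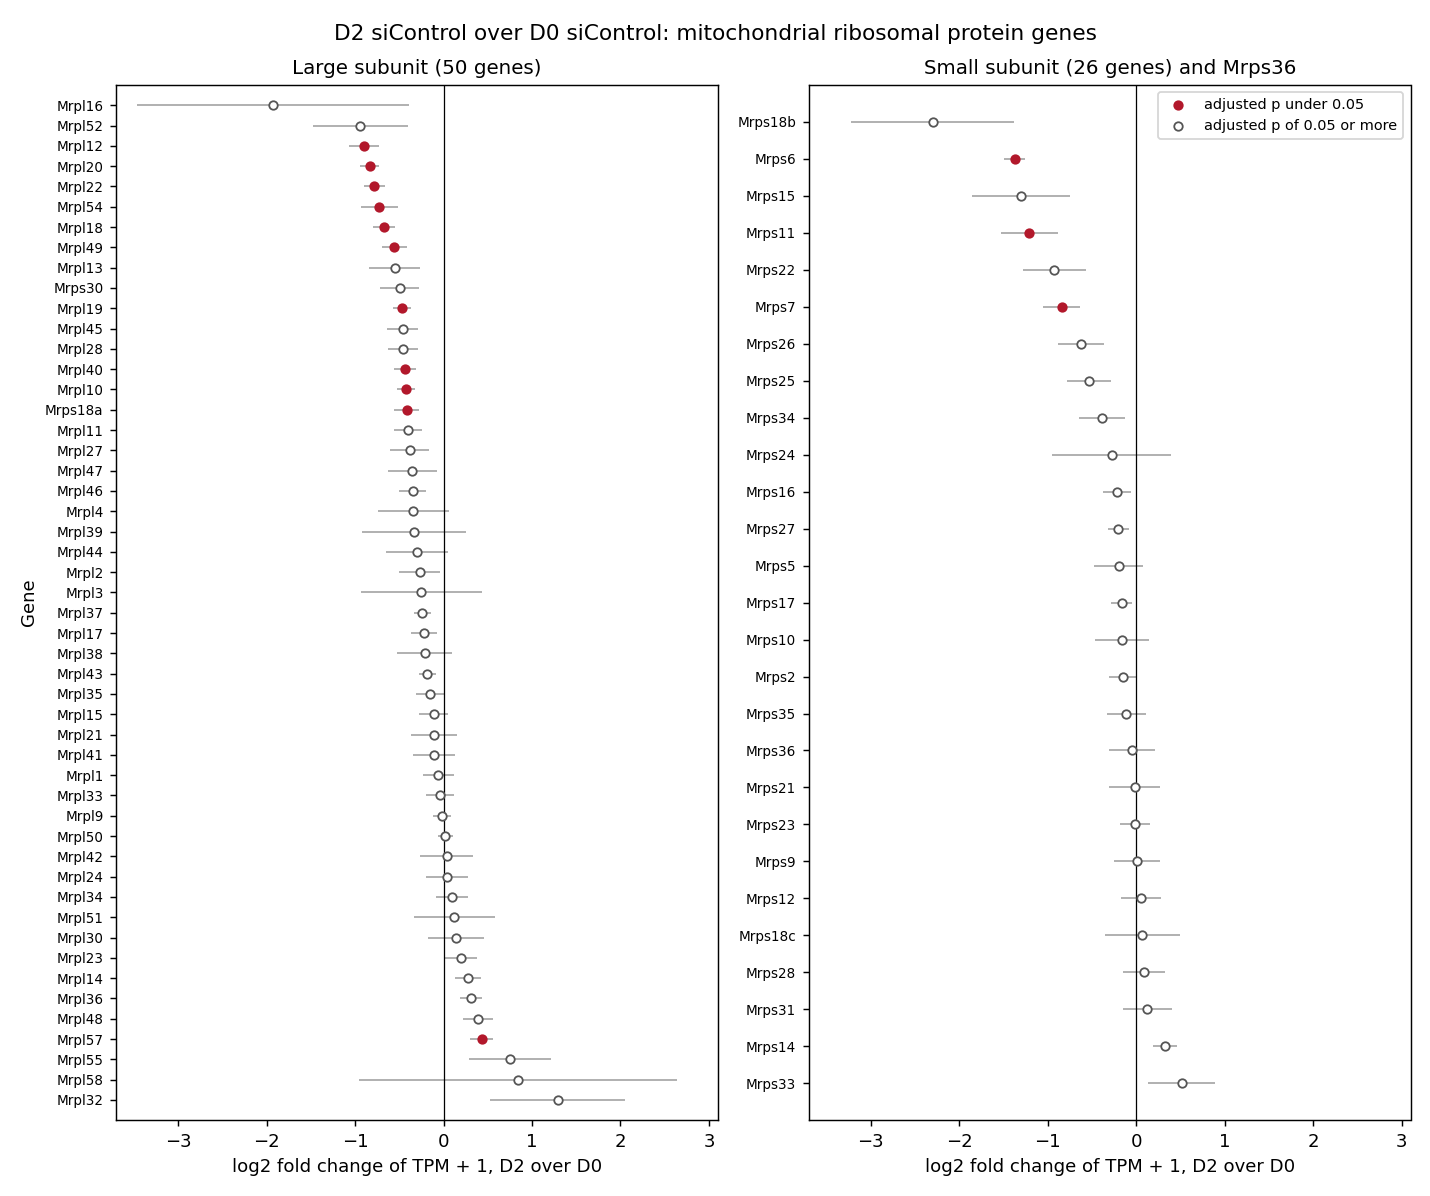
Log2 fold change of TPM + 1 at D2 over D0 in siControl cells for the 77 genes, with large-subunit genes on the left and small-subunit genes and Mrps36 on the right; bars are standard errors, n = 3 libraries a group, and filled points passed an adjusted p of 0.05. Of the filled points, 13 lie left of 0 and Mrpl57 lies right of it, while the widest bars belong to members that jump inside groups, such as Mrpl58 and Mrpl16.

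Among small-subunit genes, Mrps6 (mm10, chr16:92058270-92112227, plus strand), the homologue of bacterial S6, had 59.2, 63.2 and 61.1 TPM in the D2 siControl libraries, against 176, 169 and 138 TPM in the D0 siControl libraries. The groups do not overlap, and the log2 fold change was -1.37 ± 0.12 (SE; adjusted p = 1.3e-05). Mrps6 shares its first exon, on the same strand, with Slc5a3, a myo-inositol transporter, so that reads there can belong to either gene. Slc5a3 itself had 32.2, 41.4 and 37.8 TPM at D2, against 113, 113 and 124 TPM at D0 in siControl cells, and its part in the Mrps6 value was not tested. Mrps7, the homologue of S7 in the head of the small subunit, had 30.8, 29.1 and 27.8 TPM at D2, against 58.8, 48.2 and 52.9 TPM at D0, a log2 fold change of -0.84 ± 0.21 (adjusted p = 0.01). All 3 D2 libraries lie below all 3 at D0. Mrps11, the homologue of S11, was lower and more spread, with 3.73, 7.39 and 4.08 TPM at D2 against 9.38, 16.3 and 12.9 TPM at D0. Its log2 fold change was -1.21 ± 0.33 (adjusted p = 0.015), and the call was lost without siControl library 2 of D0 (adjusted p = 0.059) or without siControl library 1 or 3 of D2 (adjusted p = 0.057 and 0.054). Its head-to-head partner Mrpl46, a central protuberance protein, had a log2 fold change of -0.35 (adjusted p = 0.11, and 0.039 with median-ratio scaling or 0.037 without siKctd10 library 1 of D0).

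The stalk is the mobile arm of the large subunit that binds elongation factors, and 2 of its 3 genes fell, where 14% of all genes did. All 3 have a single transcript that shares no exon base with another gene, and 19.2% of such genes fell. In siKctd10 cells 1 of the 3 fell, where 13.3% of all genes did. Mrpl12 (mm10, chr11:120484613-120489065, plus strand), the stalk protein itself, had 62.2, 41.5 and 45.4 TPM in the D2 siControl libraries, against 103, 88.5 and 84.6 TPM in the D0 siControl libraries. Its log2 fold change was -0.90 ± 0.17 (adjusted p = 0.0023), with no overlap. Mrpl10, which anchors it, had 187, 178 and 193 TPM at D2 and 262, 255 and 231 TPM at D0, a smaller fall of 0.42 on the log2 scale (SE 0.10, adjusted p = 0.0099). Mrpl11, at the stalk base, had a log2 fold change of -0.41 ± 0.16 and missed the threshold (adjusted p = 0.075, and 0.03, 0.016 and 0.033 with median-ratio scaling, quantile normalization and voom).

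Around the exit tunnel, 1 of 6 genes fell (16.7%), a share near the 14% of all genes. Mrpl22, which lines the tunnel, had 7.17, 6.24 and 8.07 TPM at D2 against 11.96, 13.62 and 13.42 TPM at D0, with no overlap and a log2 fold change of -0.78 ± 0.12 (adjusted p = 0.00053). Mrpl45, which holds the ribosome to the inner membrane, had -0.46 ± 0.17 (adjusted p = 0.063). It passed with those 3 scalings (0.023 to 0.036), with the 2 groups fitted alone (0.026) and without siKctd10 library 3 of D0 (0.025). In the central protuberance, the crown of the large subunit, 2 of 5 genes fell, where 14% of all genes did. Mrpl18 had 42.5, 41.3 and 42.7 TPM at D2 against 71.7, 69.6 and 62.2 TPM at D0, and a log2 fold change of -0.67 ± 0.13 (adjusted p = 0.0022). Its D2 libraries lay within 2 TPM of each other, and all D0 libraries lay above them. Mrpl40 fell by 0.44 on the log2 scale (SE 0.12, adjusted p = 0.018), a call lost without siControl library 1 of D0 or 3 of D2 (adjusted p = 0.067 and 0.066).

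Of the other large-subunit genes, Mrpl20, whose bacterial homologue binds rRNA early in assembly, had 34.9, 40.7 and 43.2 TPM at D2, against 69.2, 73.3 and 71.2 TPM at D0. The fall of 0.84 on the log2 scale (SE 0.11) had an adjusted p of 0.00018, and the D2 range lies wholly below the D0 range. Mrpl19 fell by 0.47 and Mrpl49 by 0.56 on the log2 scale (adjusted p = 0.0050 and 0.014). Both share exon bases with a gene of the opposite strand (Gcfc2 and Syvn1), and the sources used here do not say that strand was used in assigning reads. Mrpl54 and Mrps18a, the second being 1 of 3 homologues of bacterial S18, fell by 0.73 and 0.41 (adjusted p = 0.021 and 0.045). Mrpl49, Mrpl54 and Mrps18a lost the call without single libraries of these groups, with adjusted p up to 0.054, 0.078 and 0.14. For Mrpl49 these were siControl library 3 of D0 and library 2 of D2. For Mrpl54 they were siControl libraries 1 and 2 of D0 and 2 and 3 of D2, and for Mrps18a they were all of these groups' libraries but siControl library 1 of D2, besides siKctd10 library 2 of D0 and library 1 of D2. Mrps18a also lost it with no filter on low genes (adjusted p = 0.057).

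Mrpl57 (mm10, chr14:57826234-57829296, plus strand), the member that rose, had 17.0, 18.5 and 16.2 TPM in the D2 siControl libraries, against 12.25, 12.47 and 12.73 TPM in the D0 siControl libraries. The groups do not overlap, with a log2 fold change of 0.43 ± 0.13 (adjusted p = 0.029). The call was lost under median-ratio scaling (adjusted p = 0.056), quantile normalization (0.10) and voom on estimated read pairs (0.090), and without any of the 6 siControl libraries but library 3 of D2 (0.061 to 0.094). It starts 49 bases from Ska3, a protein of the mitotic spindle attachment complex, which had a log2 fold change of -1.30 (adjusted p = 4.3e-05), so this pair of neighbours moved in opposite directions.

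**Figure D2:**
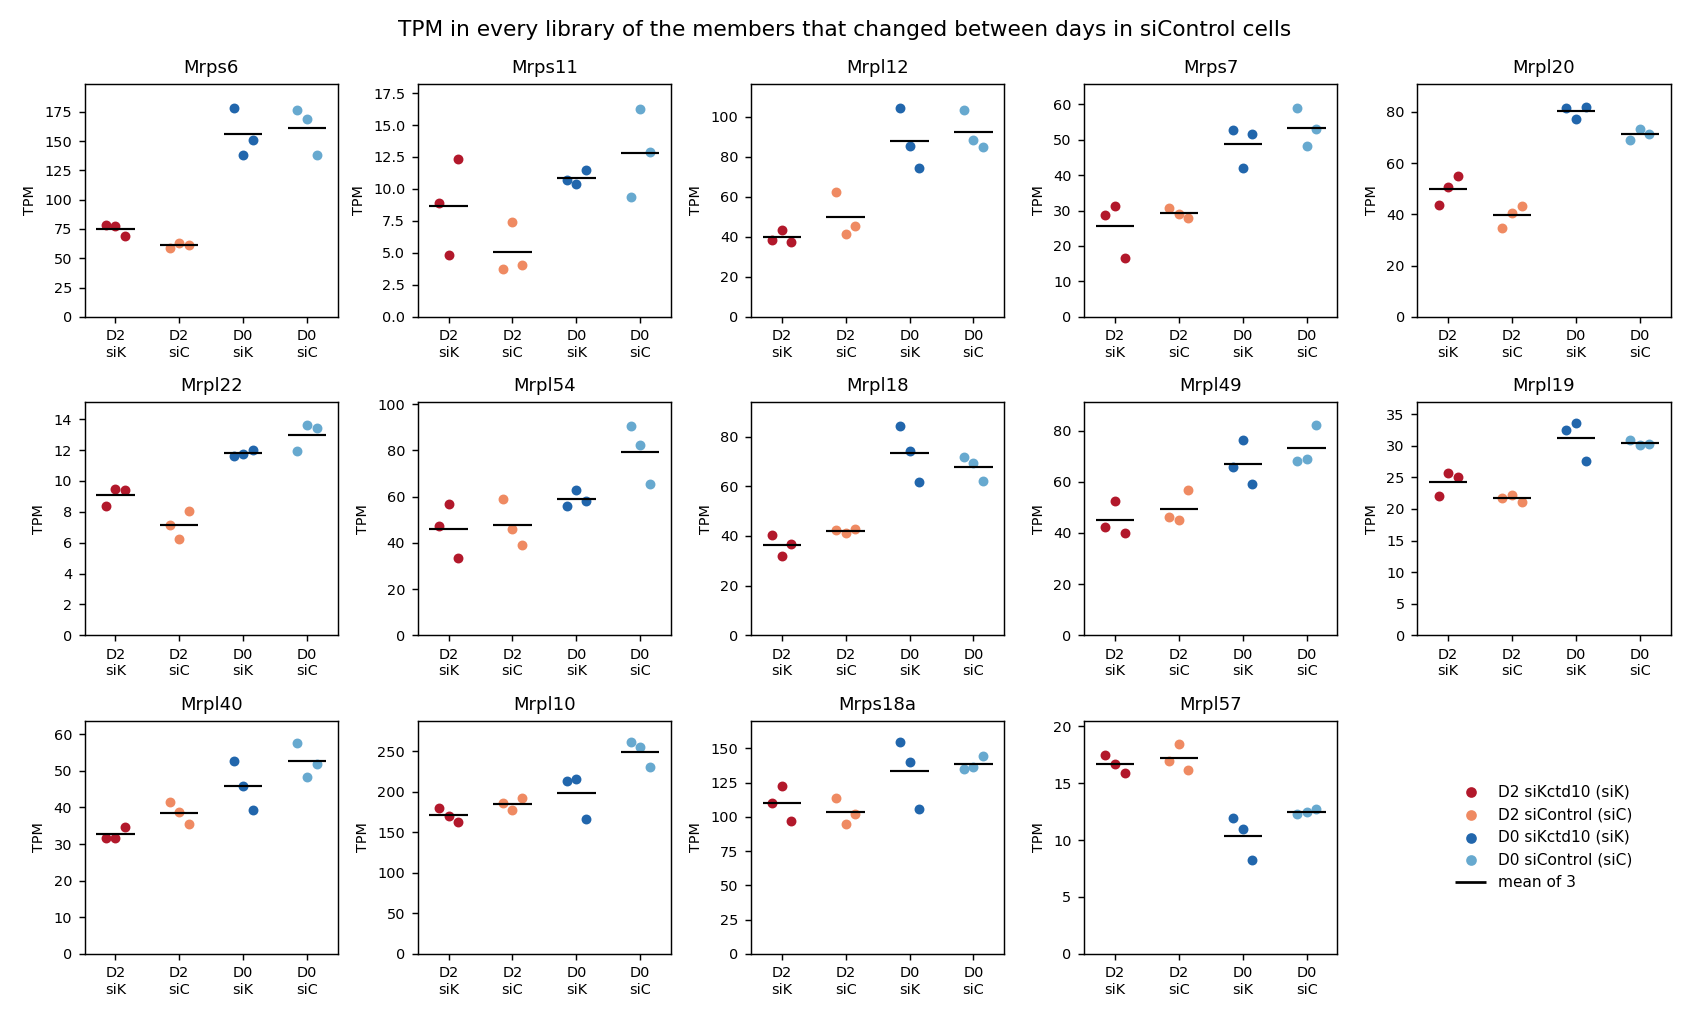
TPM in each of the 12 libraries for the 14 members that changed between days in siControl cells, a panel a gene; points are libraries and lines the means of 3, in the order D2 siKctd10, D2 siControl, D0 siKctd10 and D0 siControl. In the siControl groups, 13 panels have the D2 mean below the D0 mean, and the Mrpl57 panel has it above.

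Among the members outside these calls, Mrps2 and Mrps5, small-subunit homologues of bacterial S2 and S5, and Mrps12, at the decoding site, had log2 fold changes of -0.15, -0.20 and 0.05 with adjusted p of 0.49, 0.63 and 0.89. The sign of Mrps12 turned with median-ratio scaling, quantile normalization and voom (-0.03, -0.12 and -0.04) and without siControl library 1 of D0 (-0.02). Mrps30 had -0.49 ± 0.22 (adjusted p = 0.11), Mrpl44, which has a fold like ribonuclease III, -0.30 ± 0.35 (adjusted p = 0.56), and Mrps36 -0.04 ± 0.26 (adjusted p = 0.92). Mrpl44 turned to 0.14 without siControl library 3 of D2, and Mrps36 turned to 0.17 and 0.04 without siControl library 3 of D0 or of D2. Members with a bacterial homologue gave 9 falls of 44 (20.5%), and those with no listed homologue gave 4 falls and 1 rise of 32, where 14% of all genes fell and 21.4% rose. Their medians were -0.21 and -0.23. Over the 29 members with a single transcript that shares no exon base with another gene, 9 fell and 0 rose, against 19.2% lower and 25.1% higher of 3419 such genes. The median of these members was -0.36.

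Summed over the members that stay within 3-fold inside every group, both subunits were lower at D2. The 42 large-subunit genes summed to 2273, 2084 and 2128 TPM in the D2 siControl libraries, against 2617, 2684 and 2423 TPM in the D0 siControl libraries, a ratio of 0.839 between the means. The 21 small-subunit genes summed to 588, 562 and 551 TPM at D2, against 783, 754 and 700 TPM at D0, a ratio of 0.761. Neither of the 2 sums overlaps between the days. Mrps6, whose first exon is shared with Slc5a3, makes up 59.2, 63.2 and 61.1 TPM of the small-subunit sum at D2. At D0 it makes up 176, 169 and 138 TPM, so much of the small-subunit fall lies in this gene. A sum without Mrps6 was not made. TPM are shares of a fixed total, and the 6 myocyte markers alone summed to 1960 to 2130 TPM at D2, against 31.8 to 43.1 TPM at D0, with 6 of 6 higher. The 6 myoblast markers summed to 2230 to 2320 TPM at D2, against 656 to 683 TPM at D0, also with 6 of 6 higher. This list thus rose with differentiation in spite of its name. The part of either list in the members' values was not tested.

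**Figure D3:**
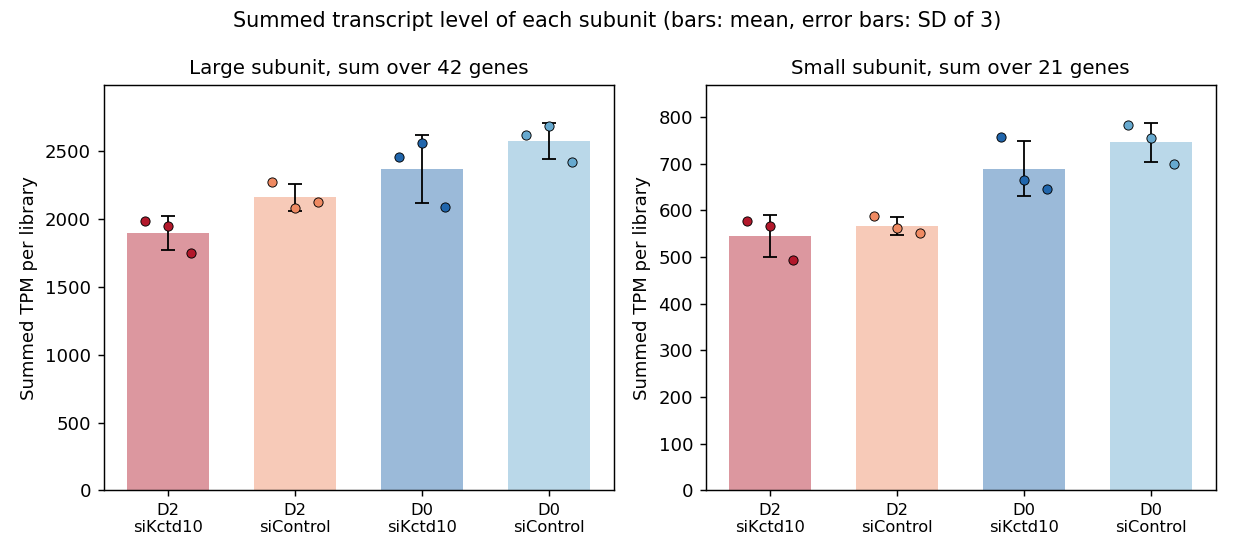
Summed TPM per library over 42 large-subunit and 21 small-subunit genes that stay within 3-fold inside every group; bars are means, error bars SD of 3 libraries, points single libraries, and groups run D2 siKctd10, D2 siControl, D0 siKctd10, D0 siControl. In either siRNA arm all D2 points lie below all D0 points for these genes. The small-subunit sums include Mrps6, with 68.9 to 78.5 TPM at D2 and 138 to 178 TPM at D0 in siKctd10 cells. Whether the days stay apart without Mrps6 was not tested. Summed over all 50 large-subunit genes, not shown, the days overlap in siKctd10 cells (2317 TPM in D2 library 1, 2314 TPM in D0 library 3).

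The same comparison in siKctd10 cells takes its fold changes from other libraries, but its estimate of the spread comes from all 12 libraries. It gave 13 falls and 4 rises among 77 members, against 13.3% lower and 23.1% higher of all genes (36.4% in all). Of the members called, 10 were called in both arms and in the same direction, which is 58.8% of the siKctd10 calls and 71.4% of the siControl calls. Over all genes the shares called in both arms, in whichever direction, were 74.6% and 76.5%. Of those 3548 genes, 3530 had the same direction. The 10 are Mrps6, Mrps7, Mrpl12, Mrpl18, Mrpl19, Mrpl20, Mrpl22, Mrpl40 and Mrpl49, which fell, and Mrpl57, which rose. In siKctd10 cells the Mrpl22 call (log2 fold change -0.34, adjusted p = 0.044) was lost in 13 of 22 alternatives, with adjusted p up to 0.13, among them leaving out any siKctd10 library, any siControl library of D0 or siControl library 1 of D2. The Mrpl19 call (-0.35, adjusted p = 0.023) was lost in 4 of 22, with the 2 groups alone and without siKctd10 library 1 or 2 of D0 or 1 of D2 (up to 0.098). The other 8 kept the call in siKctd10 cells under all 22 alternatives. The median over members was -0.23, against 0.12 over all genes.

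Mrps6 had 78.5, 77.9 and 68.9 TPM in the D2 siKctd10 libraries, against 178, 138 and 151 TPM in the D0 siKctd10 libraries, with a log2 fold change of -1.04 ± 0.12 (adjusted p = 9.1e-05). Mrpl12 had 38.6, 43.5 and 37.4 TPM at D2, against 105, 85.5 and 74.2 TPM at D0 (log2 fold change -1.11 ± 0.17, adjusted p = 0.00061). Mrpl18 had 40.2, 31.9 and 36.7 TPM at D2, against 84.3, 74.3 and 61.9 TPM at D0 (log2 fold change -0.99 ± 0.13, adjusted p = 0.00018). In all of these the days do not overlap. Mrpl57 had 17.5, 16.7 and 15.9 TPM at D2, against 11.96, 10.95 and 8.256 TPM at D0 (log2 fold change 0.65 ± 0.13, adjusted p = 0.0035).

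A further 7 members were called in siKctd10 cells and not in siControl cells, namely the falls Mrpl9, Mrpl28, Mrpl37 and Mrps26 and the rises Mrps14, Mrpl36 and Mrpl48. Their log2 fold changes were -0.36 for Mrpl9, -0.57 for Mrpl28, -0.29 for Mrpl37, -0.82 for Mrps26, 0.49 for Mrps14, 0.45 for Mrpl36 and 0.54 for Mrpl48. Each call was lost on leaving out 3 to 5 of the siKctd10 libraries in turn, and in all in 4 (Mrpl9) to 8 (Mrpl48) of the 21 or 22 alternatives, with adjusted p up to 0.24. The 3 rises were also lost with median-ratio scaling. Of the Mrpl48 TPM, 74.4% came from a transcript of 1 exon and 11.9% from a spliced transcript of 8 exons. Mrpl48 also shares exon bases with Rab6a on the opposite strand. Mrps11, Mrpl10, Mrpl54 and Mrps18a were called in siControl cells and not in siKctd10 cells. The difference itself, the interaction of day and siRNA, was past the threshold for 0 members, with 3 at an unadjusted p under 0.05 in limma, 3 by voom on estimated read pairs and 0 past the threshold there, and 0.742% of all genes called. So none of these 11 genes is shown to differ between arms. When the 2 groups were fitted alone, 11 members passed in siKctd10 cells, 2 higher and 9 lower, and with median-ratio scaling 21, of which 1 was higher. That scaling moved the split over all genes from 63.5% of calls higher to 51.8%. Of all 13076 genes, 3905 passed with the 2 groups alone (1369 lower). With median-ratio scaling 4738 of them passed (2284 lower), against 4756 without it (1735 lower). Without siKctd10 library 2 of D0, 11 members passed, and 4183 of all genes.

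**Figure D4:**
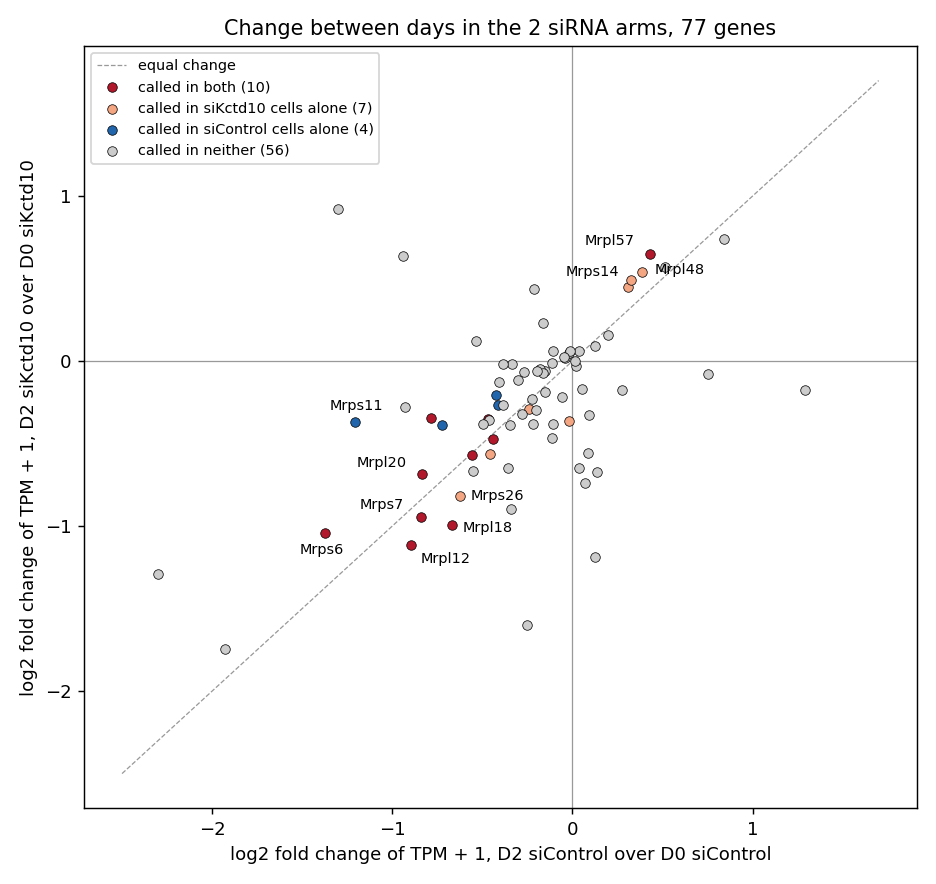
Log2 fold change of TPM + 1 at D2 over D0 for the 77 genes, in siKctd10 cells on the vertical axis and in siControl cells on the horizontal axis; each point is a gene, and colours give the comparison in which it passed an adjusted p of 0.05. Of the 10 genes called in both arms, 9 lie at the lower left and Mrpl57 at the upper right. Some lie off the dashed line of equal change, such as Mrpl22 (-0.78 in siControl cells and -0.34 in siKctd10 cells).

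Between siKctd10 and siControl cells few of these genes passed. At D0, 1 of 77 members passed the threshold, Mrps14, which was lower, against 2.45% of all genes called and 0.964% lower. Mrps14 (mm10, chr1:160195215-160202170, plus strand), the homologue of bacterial S14 in the small-subunit head, had 16.5, 16.4 and 19.6 TPM in the D0 siKctd10 libraries, against 25.96, 30.37 and 25.94 TPM in the D0 siControl libraries. The groups do not overlap, and the log2 fold change was -0.62 ± 0.13 (adjusted p = 0.042). This call was lost when the 2 groups were fitted alone (adjusted p = 0.15), with the replicate number as a block (0.075) and without any library of these groups but siKctd10 library 3 (0.084 to 0.14). It was also lost without siControl library 2 or 3 or siKctd10 library 1 or 2 of D2 (0.056 to 0.069). At D2 Mrps14 had 27.41, 25.95 and 21.73 TPM with siKctd10, against 39.0, 31.5 and 33.3 TPM with siControl, again with no overlap, and a log2 fold change of -0.45 ± 0.13 (adjusted p = 0.093). The fold changes at the 2 days share no library, but both tests use the same estimate of the spread.

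At D2, 0 of 77 members passed by limma, against 4.75% of all genes called (1.92% lower), while 13 had an unadjusted p under 0.05. Voom on estimated read pairs called 1, Mrpl30, with 9 at an unadjusted p under 0.05. Mrpl30 had 176, 85.6 and 95.7 TPM in the D2 siKctd10 libraries, against 332, 228 and 274 TPM in the D2 siControl libraries. The groups do not overlap and the mean ratio was 0.428, with a log2 fold change of -1.27 ± 0.31 (adjusted p = 0.051, and 0.025 to 0.16 over the alternatives). Its call was gained without siKctd10 library 3 of D0 (adjusted p = 0.038) or library 1 of D2 (0.025), and by limma with median-ratio scaling (0.039) or the replicate block (0.039). At D0 it had 190, 244 and 126 TPM with siKctd10, against 294, 264 and 199 TPM with siControl, and these ranges overlap. Mrpl14, a protein of the face between the subunits, had 21.3, 24.4 and 21.9 TPM with siKctd10 at D2, against 38.2, 29.0 and 29.5 TPM with siControl (log2 fold change -0.49 ± 0.14, adjusted p = 0.094). Mrpl20 was among the 4 smallest p at D2 too, with a positive log2 fold change of 0.32 ± 0.11 (adjusted p = 0.13).

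The siKctd10 and siControl libraries did not overlap in 13 of 77 members at D0 (16.9%, against 23.2% of all genes) and in 21 at D2 (27.3%, against 28.4%). The median log2 fold change over members for siKctd10 was -0.08 at D0 and -0.07 at D2, against 0.05 and 0.08 over all genes. At D0 it was -0.04 without siControl library 2 and -0.05 without siKctd10 library 3, where the large-subunit median turned to 0.04. Without siKctd10 library 1 of D0 it was -0.12. At D2 it was -0.03 without siKctd10 library 3 and -0.12 without siKctd10 library 2. With median-ratio scaling it was -0.13 at D0 and -0.16 at D2. That scaling also moved the split over all genes, from 60.6% of calls higher to 47.6% at D0 and from 59.6% to 39.4% at D2. Without both siKctd10 libraries numbered 3, a choice made after seeing the data, 1 member was called at D0 (lower) and 1 at D2 (Mrps5, higher, adjusted p = 0.048). Other cell markers moved with siKctd10. The 6 myocyte markers summed to 1180 to 1620 TPM with siKctd10 at D2, against 1960 to 2130 TPM with siControl, with 3 of 6 lower. The 6 myoblast markers summed to 1710 to 2010 TPM with siKctd10 at D2, against 2230 to 2320 TPM with siControl, also with 3 of 6 lower. Of 5 smooth muscle markers, 2 rose with siKctd10 on either day. Their sum was 1590 to 1870 TPM with siKctd10 at D0, against 640 to 723 TPM with siControl, and 2470 to 3140 TPM with siKctd10 at D2, against 1370 to 1700 TPM with siControl. Myh11, a defining marker of smooth muscle, did not pass the level filter. The part of these markers in the members' values was not tested.

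**Figure D5:**
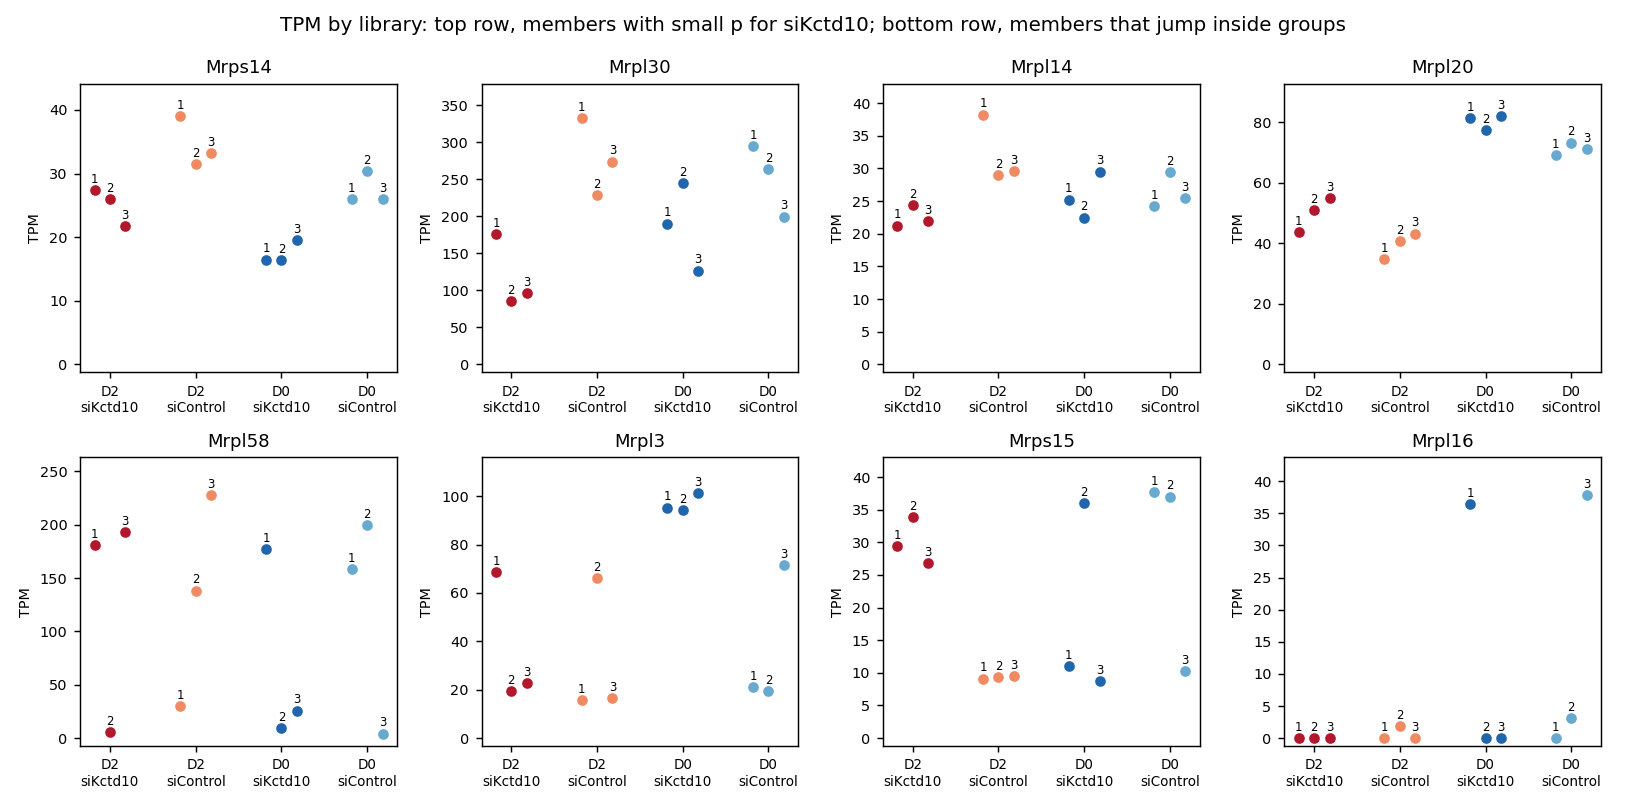
TPM in every library, numbered by replicate, in the order D2 siKctd10, D2 siControl, D0 siKctd10, D0 siControl; the top row has Mrps14, Mrpl30, Mrpl14 and Mrpl20, the bottom row 4 members whose values jump inside groups. The siKctd10 points of Mrps14 lie below the siControl points at both days, and Mrpl58 lies between 4.33 and 228 TPM with no order by group.

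For 13 of 77 members the deposited estimate spread more than 3-fold inside some group, so that their values are uncertain. None of them passed in the 5 comparisons, and Mrps15 passed for siKctd10 at D2 when these 2 groups were fitted alone. They are Mrpl3, Mrpl4, Mrpl16, Mrpl32, Mrpl39, Mrpl52, Mrpl55, Mrpl58, Mrps15, Mrps18b, Mrps18c, Mrps24 and Mrps33. Of them, 11 have several transcripts or share exon bases with another, as do 48 of all 77 members. The share of all genes past 3-fold is not given here. Mrpl58, the peptidyl-tRNA hydrolase that rescues stalled ribosomes, had 181, 5.47 and 193 TPM in the D2 siKctd10 libraries and 29.7, 138 and 228 TPM in the D2 siControl libraries. At D0 it had 177, 9.21 and 25.9 TPM with siKctd10 and 158, 200 and 4.33 TPM with siControl. Mrpl3, whose bacterial homologue reaches towards the site of peptide bond formation, had 68.7, 19.5 and 22.7 TPM in the D2 siKctd10 libraries and 15.6, 66.1 and 16.5 TPM in the D2 siControl libraries. With siKctd10 at D0 it had 95.3, 94.4 and 101 TPM, against 21.0, 19.5 and 71.7 TPM with siControl, and most of this came from a single transcript that was either near 0 or between 49.1 and 71.7 TPM. Mrpl16 was at 0 in 8 libraries, at 1.89 and 3.11 TPM in 2 and at 36.4 and 37.8 TPM in 2. A transcript of the same strand that overlaps it and was matched to no gene had 0.296 and 0.382 TPM in the 2 libraries where Mrpl16 was high. Elsewhere that transcript had 1.41 to 16.9 TPM.

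Other genes of mitochondrial translation, in lists of known function, were tested in the same fit between days in siControl cells, where 14% of all genes fell and 21.4% rose. Of 5 measured ribosomal proteins of other names, 1 fell (Dap3, a GTP-binding small-subunit protein, 9.82 TPM at D2 and 18.3 TPM at D0, log2 fold change -0.91, adjusted p = 0.018) and 0 rose. The Dap3 call was lost with the 2 groups alone or without siControl library 3 of D0 or 1 or 3 of D2 (0.058 to 0.067). Of 13 translation factors, 3 fell (23.1%), Tsfm (-0.68), Gfm1 (-0.52) and Oxa1l (-0.50), which are elongation factors and the insertase of the inner membrane. Of 28 assembly factors, 5 fell (17.9%) and 0 rose, with Eral1, a chaperone of the small-subunit rRNA, at -0.68 and the rRNA methyltransferase Mrm3 at -0.67. Of 20 aminoacyl-tRNA synthetases and amidotransferase subunits of mitochondria, 3 fell, such as Mars2 (-0.68), and Nars2 rose (0.68). Of 18 genes of mitochondrial RNA synthesis and stability or DNA replication, 3 fell (16.7%), and 0 rose. They were Pnpt1 (-0.72) and Trmt10c (-0.64), which process RNA, and Polg (-0.37), the mitochondrial DNA polymerase. The shares of falls in the assembly, synthetase and RNA lists lie near that of all genes. Calls were lost in 13 of 22 alternatives for Polg (adjusted p up to 0.13), in 7 of 21 for Pnpt1 (up to 0.14), in 5 of 22 for Oxa1l (up to 0.093), in 3 of 22 for Gfm1 (up to 0.066) and in 1 of 22 for Trmt10c (0.081), most of them on leaving out single siControl libraries. Tsfm, Eral1, Mrm3, Mars2 and Nars2 kept theirs in all alternatives run, and all these lists were chosen with earlier results of these data known.

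Of 11 regulators of mitochondrial biogenesis that were kept, Pprc1, a coactivator of the PGC-1 family, fell by 0.72 on the log2 scale (33.7 TPM at D2 and 56.0 TPM at D0 in siControl cells, adjusted p = 0.00011). Ppargc1b, of the same family, rose by 0.55 (4.66 TPM at D2 and 2.84 TPM at D0, adjusted p = 0.038). That call was lost in 11 of 21 alternatives (adjusted p up to 0.23), among them the 3 scalings and leaving out siControl library 2 or 3 of either day. Ppargc1a reached at most 0.746 TPM in any library and was not tested. Of the factors of the motifs above, Nrf1, Gabpa (of the ETS family) and Yy1 did not pass. Their log2 fold changes were -0.48 for Nrf1, -0.37 for Gabpa and -0.03 for Yy1. Other ETS-family factors and those of the E-box are not given here. Gabpa turned to 0.10 without siControl library 2 of D2, and Yy1 turned to 0.01 without siControl library 2 of D0 or 1 of D2. Of the mRNAs that mitochondrial ribosomes translate, 5 of 13 had a matched transcript, and mt-Nd2 and mt-Atp6 fell by 0.38 and 0.22 on the log2 scale (adjusted p = 0.0052 and 0.027). With quantile normalization neither passed (0.28 and 0.77), and mt-Atp6 also lost the call without siControl library 1 or 3 of D0 or 2 of D2 (0.056 to 0.1). With siKctd10, 0 genes of these 7 lists passed at D0, and at D2 Mterf1b rose (0.60, adjusted p = 0.036), a near copy of Mterf1a whose reads may be shared. This call was lost in 14 of 21 alternatives (up to 0.12), among them every scaling and leaving out any library of the D2 groups but siControl library 3.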

How the data were processed

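Poly(A) RNA of 12 C2C12 libraries was analysed in 4 groups of 3, taken from the labels. The authors' deposited values are transcript TPM estimates by StringTie (1.3.3b per the file headers, 1.1.3 per the submitters' processing notes, which also name HISAT, SAMtools, DESeq2 and mm10), and other values in the deposited files are coverage and FPKM. The files hold 63759 known transcripts each, with TPM summing to 1000000. Transcripts were matched to GENCODE genes of the same build where all introns were the same (42608) or where exons overlapped over 50% or more of their bases (13473), 88.0% in all, and TPM was summed per gene. Unmatched transcripts held 3.82 to 4.63% of TPM. Genes at 1 TPM or more in at least 3 libraries were kept (13076). limma 3.58.1 in R 4.3.3 was fitted, with trend and robust options, to log2(TPM + 1) with 4 group means (8 residual degrees of freedom). Its p-values are two-sided and were adjusted over all genes (Benjamini-Hochberg). The fit was first tested on simulated data. Read pairs were estimated from coverage, length and 202 bases a pair. Deposited counts were not used here, so no counting interval is given and no test was run on such counts. Voom, run as an alternative, used the estimated read pairs.

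Members and lists were chosen with earlier results of these data known. The named genes are the called members of 3 comparisons (where none was called, the 4 smallest p), the 6 highest and 4 lowest by level, 16 fixed members, members past 3-fold inside a group, and called genes of the other lists, at most 4 rises and 4 falls a list. Mrpl46, Mrpl43, Ska3, Slc5a3, the genes that passed between days in siKctd10 cells and others outside this rule were chosen after their values were seen. Alternatives were the pseudocount, level filters, median-ratio and quantile scaling, a replicate block, voom, fits of 2 groups, stricter matching and leaving out each library.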

Additional observations from a re-analysis of the deposited data

How the results depend on the processing

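Depth is known only as estimated read pairs, and low members such as Mrps36 rest on few of them. Between days, the count of members called in siControl cells stayed within 1.5 times the reported 14 under all alternatives run, and leaving out single libraries gave 10 to 17. In siKctd10 cells, where 17 were called, leaving out single libraries gave 11 to 20, and fitting the 2 groups alone gave 11. Of all 13076 genes, leaving out single libraries called 3938 to 4799 in siControl cells and 4031 to 4650 in siKctd10 cells. For siKctd10 at D0, where 1 member was called, the count was 0 with the replicate block and 0 with the 2 groups alone, and leaving out single libraries gave 0 to 1. For siKctd10 at D2, where 0 were called, the count was 1 with median-ratio scaling, quantile normalization, the replicate block, voom, the 2 groups alone and without both siKctd10 libraries numbered 3, and leaving out single libraries gave 0 to 2. Of all 13076 genes, those named settings called 672, 635, 546, 607, 252 and 443 in that order. The member called there was Mrpl30 with median-ratio scaling, the block and voom, Mrpl14 with quantile normalization, Mrps15 with the 2 groups alone and Mrps5 without the libraries numbered 3, and the cause was not tested. The interaction gave 0 members under all alternatives run. No member that passed in a comparison changed sign in it. Among named genes that did not pass between days in siControl cells, Mrps12 turned to -0.034 with median-ratio scaling, -0.12 with quantile normalization and -0.044 with voom. Leaving out single libraries gave -0.018 to 0.106 for Mrps12, -0.540 to 0.145 for Mrpl44, -0.218 to 0.174 for Mrps36, -0.609 to 0.096 for Gabpa and -0.073 to 0.012 for Yy1. The cause was not tested.

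Replicate numbers are not said to pair samples, and deviations of same-numbered libraries correlated at -0.024 to 0.209, above 0.1 in 2 of 12 pairs. With the replicate block, 15 members were called between days in siControl cells, 16 in siKctd10 cells, 0 for siKctd10 at D0, 1 at D2 and 0 for the interaction. Of all 13076 genes, the block fit called 4624, 4707, 319, 546 and 42 in that order.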
